A study of Macaca mulatta with 14 samples.

Results

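The genes described here encode proteins of pre-mRNA splicing in 4 families. A gene belongs to the set if its symbol begins with SRSF (formerly SFRS), HNRNP, SF3A, SF3B or SNRP in the array annotation, where a probe set (a group of short probes for 1 transcript) had to carry that symbol alone. The rule found 39 genes with 100 probe sets, of 14132 genes named in this way on the whole array. There were 8 SR protein genes, 16 hnRNP genes, 7 SF3A or SF3B genes and 8 SNRP genes. Each gene was read from its probe set with the highest mean signal over all arrays, and 38 of the 39 passed the filter on dim signal. SRSF12 was the 1 that did not, averaging 5.82 (log2) in control animals and 6.04 under CR, and it is left out of the counts below. SRSF1, SRSF2, HNRNPA2B1 and SF3B1 were to be described whatever their result, but they had no probe set that met the rule and were not analysed here. The set was chosen by name, with earlier results of these data known. The only measured value in the rule was the brightness of a probe set averaged over both diets.

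RNA came from PBMC (mononuclear cells of the blood, that is lymphocytes with monocytes) of 14 male rhesus macaques. Of these, 7 were fed a control diet and 7 were kept on calorie restriction (CR), and each sample was read on 1 expression array. Control animals were 24 to 27 years old and CR animals 24 to 30 years old when blood was taken. The design text gives 16 years of CR, taken here as the time the CR animals had spent on the diet. In their titles the samples are numbered as biological replicates of their diet, and neither a batch nor the age of each animal was available as a covariate.

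Splicing removes introns from pre-mRNA and is carried out by the spliceosome, which is built from small nuclear ribonucleoproteins (snRNPs). The Sm proteins of the SNRP family form a ring around each spliceosomal snRNA, while other SNRP proteins belong to U1, which recognises the 5′ splice site, or to U2. The SF3A and SF3B complexes are parts of the U2 snRNP and hold it at the branch point. SR proteins have arginine-serine-rich tails and mostly bind exonic enhancers that promote inclusion of an exon, and hnRNP proteins coat nascent transcripts and often act against nearby splice sites. Members of both regulator families adjust their own mRNA through alternative splicing, and in lymphocytes splicing of receptor genes such as PTPRC (CD45) changes with activation through hnRNP proteins.

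The arrays correlated with each other at medians of 0.932 among controls, 0.919 among CR arrays and 0.919 between the diets, and control 1 had the lowest median correlation with the others (0.879). Every marker list for blood cell types had probe sets above the floor on at least 1 array, but for T cells only 6 of 13 listed genes could be read, and CD3D, CD3E and CD3G were not analysed here. Of 15 listed monocyte markers 11 were tested, and all 11 were lower in CR. Their summed signal ran from 45826 to 134912 in controls and from 16641 to 88682 in CR. Their score was lowest in CR 6 (-1.80) and CR 7 (-1.44). The other CR arrays scored from -0.30 to 0.95, within the control range of -0.69 to 1.01. The difference in this score did not pass (two-sided exact permutation test, p = 0.226). The 6 T cell markers summed to between 4452 and 8610 in controls and between 6152 and 14279 in CR, and 5 of the 6 were higher in CR. NK and cytotoxic markers were higher in CR in 9 of 11, with sums of 102011 to 224279 in controls and 173646 to 329049 in CR. The NK score was -0.23 ± 0.36 (SD, n = 7) in controls and 0.23 ± 0.17 in CR. That of the T cells was -0.20 ± 0.26 in controls and 0.20 ± 0.35 in CR. Among the marker scores only that of the monocytes was tested, so a difference in the others is left undecided. Neutrophil markers were lower in 6 of 6, with sums of 6593 to 28116 in controls and 1729 to 18659 in CR. Their score was also lowest in CR 7 (-1.58) and CR 6 (-1.53). It ran from -0.39 to 0.92 in the other CR arrays and from -0.076 to 0.89 in controls. The part of these shifts in the splicing factor values was not tested. The log2 ratio of the 3′ to the 5′ control probe set of GAPDH, a measure of RNA integrity, was 6.14 ± 0.83 (SD, n = 7) in control animals and 6.58 ± 0.31 under CR, and this difference did not pass (two-sided exact permutation test, p = 0.222). In bulk PBMC, fewer cells of a type and less RNA per cell cannot be told apart.

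Across the 4 families no splicing factor gene passed the test of CR against control, and the median difference of the set was close to zero. HNRNPU, HNRNPH2 and SRSF5 had lower signal in CR and SNRPD3 had higher signal, each with an unadjusted p under 0.05 and an adjusted p of 0.918 (limma). Of the 38 tested genes, 0 had an adjusted p under 0.05, against 0% of the 9355 tested genes. At an unadjusted p under 0.05 there were 4 of 38 (background 5.18%), 3 of them lower (background 2.02%) and 1 higher (background 3.16%), and a fit without variance moderation gave 6 at that level and 0 after adjustment. In sign, 18 of 38 were lower in CR, which is 47.4% against 46% of all tested genes, and 20 were higher (background 54%). The median difference was 0.00722 on the log2 scale against 0.025 over all tested genes.

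For 24 of the 38 genes the 95% interval of the difference lay wholly within a 1.5-fold change in either direction, against 36.5% of all tested genes. HNRNPH2 was the only 1 of the 38 that differed by more than 0.5 log2 units (background 8.17%). In 0 of the 38 did the values of the diets fail to overlap (background 0.0641%), and in 16 at least 6 of 7 CR values lay on the same side of the control median (background 28.2%). These genes were bright and varied little: the median within-group SD was 0.29 for these genes and 0.42 for all tested genes, at median mean log2 signals of 11.86 and 9.51.

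**Figure D1:**
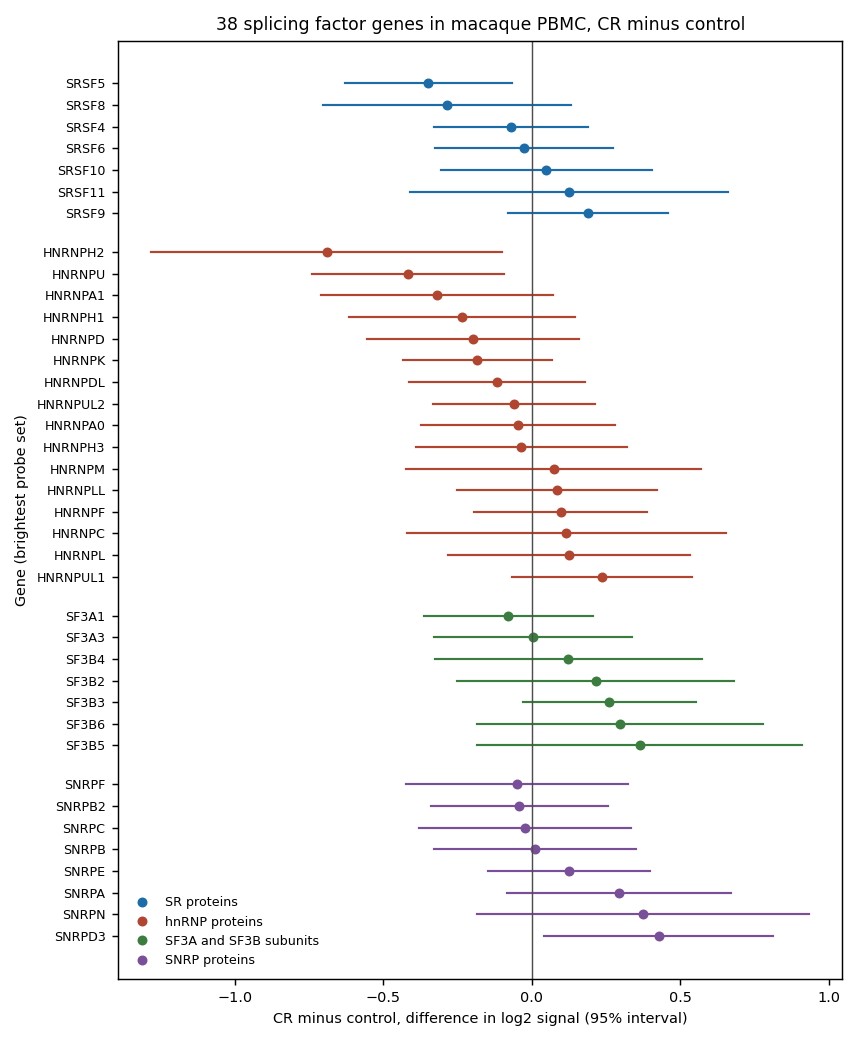
Difference in log2 signal (x axis, CR minus control) of the 38 tested splicing factor genes (y axis), with points for the fitted difference, lines for its 95% interval, and colours for the 4 families. The intervals of HNRNPH2, HNRNPU, SRSF5 and SNRPD3 exclude zero before any adjustment, and all others cross it.

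Among SR proteins, 4 of 7 tested genes were lower in CR (background 46%) and 3 were higher (background 54%), with a median difference of -0.027. SRSF5, an SR protein induced early when cells are stimulated to grow, had the largest difference of the family. Its log2 signal ran from 14.08 to 14.77 (median 14.37) in controls and from 13.83 to 14.20 (median 14.13) in CR. All 7 CR values were below the control median (background 2.92%), though control 4 (14.08) and control 7 (14.18) lay inside the CR range. The difference was -0.35 ± 0.13 (SE), a 0.785-fold signal, with a 95% interval of -0.63 to -0.067 (unadjusted p = 0.0182, adjusted p = 0.918, limma). Control 1 (14.77) and control 5 (14.63) were the highest of the 14 arrays, and without both the difference was -0.23 (unadjusted p = 0.0814, limma). The probe set is of a type that can match several transcripts. With such probe sets left out, the brightest remaining one gave -0.066, and the dimmer ones gave -0.34 and -0.54.

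SRSF8, a close relative of SRSF2, had a mean log2 signal of 10.22 ± 0.43 (SD, n = 7) in control animals against 9.93 ± 0.29 under CR, differing by -0.29 ± 0.20, which did not pass (adjusted p = 0.924, limma). All 7 CR values were below the control median (background 2.92%), but control 1 (9.46) was nearly as low as the lowest CR array, CR 2 (9.42). SRSF9, a small SR protein, pointed the other way. Its signal ran from 13.24 to 13.73 (median 13.47) in controls and from 13.37 to 13.81 (median 13.66) in CR, which made a difference of 0.19 ± 0.13, and 6 of 7 CR values exceeded the control median. SRSF4 differed by -0.070 ± 0.12, from 11.64 ± 0.14 to 11.57 ± 0.14, and its interval of -0.33 to 0.19 was among the narrower ones. The remaining differences were -0.027 ± 0.14 for SRSF6, 0.049 ± 0.17 for SRSF10, which is known as a repressor when dephosphorylated, and 0.12 ± 0.25 for SRSF11. The groups overlapped in every SR gene.

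The hnRNP family was lower in 10 of 16 tested genes, a share of 62.5% (background 46%), with a median difference of -0.054. An unadjusted p under 0.05 was found in 2 members (background 5.18%), both lower (background 2.02%). HNRNPU, which binds nascent RNA and scaffolds chromatin, ran from 11.87 to 12.73 (median 12.10) in controls and from 11.58 to 12.14 (median 11.70) in CR. All CR arrays except CR 2 (12.14) lay below the control median, and the lowest 5 of the 14 arrays were all CR. The difference was -0.42 ± 0.15, a 0.749-fold signal (interval -0.74 to -0.094, unadjusted p = 0.0144, adjusted p = 0.918, limma). Without control 1 and control 5 it was -0.27 (unadjusted p = 0.0677, limma). A second tested probe set gave -0.39 ± 0.15, with 7 of 7 CR values below the control median, so the 2 probe sets pointed the same way at nearly the same size. On it control 1 was the lowest control, whereas on the brighter probe set it was the second highest.

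HNRNPH2 belongs with HNRNPH1, HNRNPH3 and HNRNPF to the hnRNP H/F proteins, which bind runs of G in RNA. It had the largest difference of the whole set. Signal ran from 8.41 to 10.36 (median 9.002) in controls and from 7.82 to 8.90 (median 8.50) in CR, with CR 6 lowest (7.82). All 7 CR values were below the control median (background 2.92%), and control 5 (10.36) and control 6 (9.97) stood above every other array. The difference was -0.69 ± 0.28, a 0.619-fold signal (interval -1.28 to -0.10, unadjusted p = 0.0244, adjusted p = 0.918, limma). Without control 5 it was -0.50, and with the monocyte score as a covariate it was -0.46. HNRNPH2 was read by only 1 probe set, so it had no second reading.

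**Figure D2:**
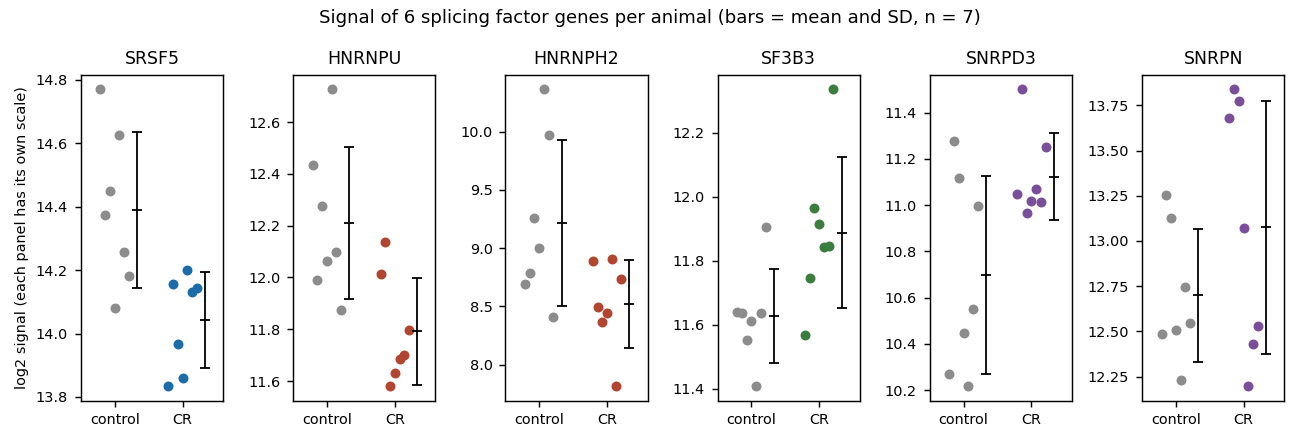
Log2 signal (y axis, a separate scale in each panel) of SRSF5, HNRNPU, HNRNPH2, SF3B3, SNRPD3 and SNRPN in control (grey) and CR (coloured) animals, with bars for the mean and SD (n = 7). Most CR values of SRSF5, HNRNPU and HNRNPH2 lie in or below the lower part of the control range and those of SNRPD3 in the upper part, while SNRPN splits into 3 CR animals above all controls and 4 lower ones.

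HNRNPA1, an abundant shuttling hnRNP protein that competes with SR proteins, had a mean of 13.79 ± 0.39 (SD, n = 7) in control animals against 13.47 ± 0.31 under CR, differing by -0.32 ± 0.19 (adjusted p = 0.918, limma). Only 4 of 7 CR values were below the control median. Control 5 (14.39) and control 1 (14.27) were the highest arrays, and without them the difference was -0.10. The HNRNPA1 probe set is of a type that can match several transcripts, and this gene has near-identical processed copies, so its signal is uncertain. HNRNPUL1, a relative of HNRNPU, had the family's largest difference on the higher side. It ran from 12.17 to 13.11 (median 12.64) in controls and from 12.79 to 13.09 (median 12.91) in CR. All 7 CR values exceeded the control median (background 5.56%), and the difference was 0.24 ± 0.14 (adjusted p = 0.923, limma). A dimmer tested probe set of HNRNPUL1 gave 0.00491, and with its probe sets averaged the difference was 0.12.

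HNRNPK, a KH-domain protein that binds C-rich RNA, and HNRNPD (AUF1), which binds AU-rich elements, were lower without passing, and so was HNRNPH1. The differences were -0.18 ± 0.12, -0.20 ± 0.17 and -0.24 ± 0.18, and in each of the 3 all 7 CR values were below the control median (background 2.92%). HNRNPD varied little among CR animals, from 12.53 to 12.85 (median 12.70), while control 5 stood alone at 13.77, and without control 5 the difference was -0.053. For HNRNPH1, control 1 (14.45) and control 5 (14.10) were the highest. The difference was -0.11 without control 1 and 0.00777 without both. The 9 other members were closer to zero. HNRNPDL was at -0.12 ± 0.14, HNRNPUL2 at -0.061 ± 0.13, HNRNPA0 at -0.048 ± 0.16 and HNRNPH3 at -0.036 ± 0.17 on the lower side. On the higher side HNRNPM was at 0.073 ± 0.24, HNRNPLL, a regulator of CD45 splicing in T cells, at 0.083 ± 0.16, and HNRNPF at 0.10 ± 0.14. HNRNPC, a nuclear hnRNP that binds uridine tracts, was at 0.12 ± 0.26 from a dim probe set, and HNRNPL, which also acts on CD45 exons, was at 0.12 ± 0.19.

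Subunits of the U2 complexes SF3A and SF3B were higher in CR in 6 of 7 tested genes (background 54%). The median of their differences was 0.22 against 0.025 over all tested genes, and 0 passed even at an unadjusted p under 0.05. SF3B3, a large scaffold subunit of SF3B, ran from 11.41 to 11.90 (median 11.64) in controls and from 11.57 to 12.34 (median 11.84) in CR. CR 7 was highest and control 5 lowest, 6 of 7 CR values were above the control median, and the difference was 0.26 ± 0.14 (interval -0.029 to 0.55, adjusted p = 0.918, limma). SF3B5, the smallest SF3B subunit, ran from 10.60 to 12.44 (median 11.73) in controls and from 11.32 to 12.42 (median 11.91) in CR, which made a difference of 0.36 ± 0.26. Its dimmer tested probe sets gave -0.13 and 0.068, and the one at -0.13 stayed below zero with any 1 array left out (-0.25 to -0.035). SF3B6 (p14), which contacts the branch point region, ran from 11.68 to 13.06 (median 12.68) in controls and from 12.38 to 13.45 (median 12.71) in CR, which made a difference of 0.30 ± 0.23. In both genes control 1 and control 5 were the lowest of the 14 arrays.

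The direction of this family depended on those 2 control animals. Without them its median difference was -0.00843, SF3B5 was at 0.044 and SF3B6 at -0.00843, while SF3B3 kept 0.22. This pair was left out after the values were seen. The other differences were 0.22 ± 0.22 for SF3B2, 0.12 ± 0.21 for SF3B4, 0.00436 ± 0.16 for SF3A3 and -0.080 ± 0.14 for SF3A1, the U2 subunit that also binds U1. Leaving out CR 2 alone gave the family a median of 0.10.

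In the SNRP family 5 of 8 genes were higher under CR (background 54%) and the median difference was 0.067. The 4 largest differences were all on the higher side. SNRPD3, a protein of the Sm ring, ran from 10.22 to 11.28 (median 10.55) in controls and from 10.97 to 11.50 (median 11.05) in CR. All 7 CR values were above the control median (background 5.56%), and 4 control arrays (1, 4, 5 and 6) were below every CR array, while control 2, control 3 and control 7 were within the CR range. The difference was 0.43 ± 0.18, a 1.34-fold signal (interval 0.042 to 0.81, unadjusted p = 0.0319, adjusted p = 0.918, limma). Without control 1 and control 5 it was 0.25. This gene had 1 probe set, so no second reading of it was possible.

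SNRPA, the U1 protein that binds a loop of U1 snRNA, had a mean of 9.35 ± 0.38 (SD, n = 7) in control animals against 9.64 ± 0.20 under CR. It differed by 0.29 ± 0.18 (adjusted p = 0.923, limma), and all 7 CR values exceeded the control median (background 5.56%). SNRPN, the imprinted relative of SNRPB best known from brain, was more uneven. It ran from 12.23 to 13.25 (median 12.55) in controls and from 12.20 to 13.84 (median 13.07) in CR, and CR 1 (13.68), CR 2 (13.84) and CR 3 (13.78) exceeded every control. CR 5 (12.20) was the lowest of all arrays, and the difference of 0.37 ± 0.27 did not pass (adjusted p = 0.924, limma).

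The other core proteins differed less. SNRPE, another Sm ring protein, was at 0.12 ± 0.13, SNRPF at -0.052 ± 0.18 and SNRPB at 0.010 ± 0.16, with SNRPB running from 10.98 to 11.43 (median 11.23) in controls and from 10.90 to 11.88 (median 11.26) in CR. SNRPC of U1 was at -0.024 ± 0.17 and SNRPB2 of U2 at -0.043 ± 0.14. So within the Sm ring the measured differences ran from that of SNRPF to that of SNRPD3, and no difference between members was tested.

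Averaged over each family, with every gene centred on its mean over the 14 arrays, the 2 regulator families and the 2 core families had opposite signs. The mean of the SR proteins was 0.027 ± 0.14 (SD, n = 7) in controls and -0.027 ± 0.088 in CR, and that of the hnRNP proteins 0.049 ± 0.14 and -0.049 ± 0.029. For the SF3A and SF3B subunits it was -0.084 ± 0.26 in controls and 0.084 ± 0.18 in CR, and for the SNRP proteins -0.069 ± 0.16 and 0.069 ± 0.22. In all 4 the groups overlapped, and these means are a description with no test. The SR median changed sign without control 5 (0.040), without CR 6 (0.00413), with the GAPDH ratio as a covariate (0.00865), with each array centred on its median (0.0074) and with no filter on dim signal, which lets SRSF12 in (0.011).

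**Figure D3:**
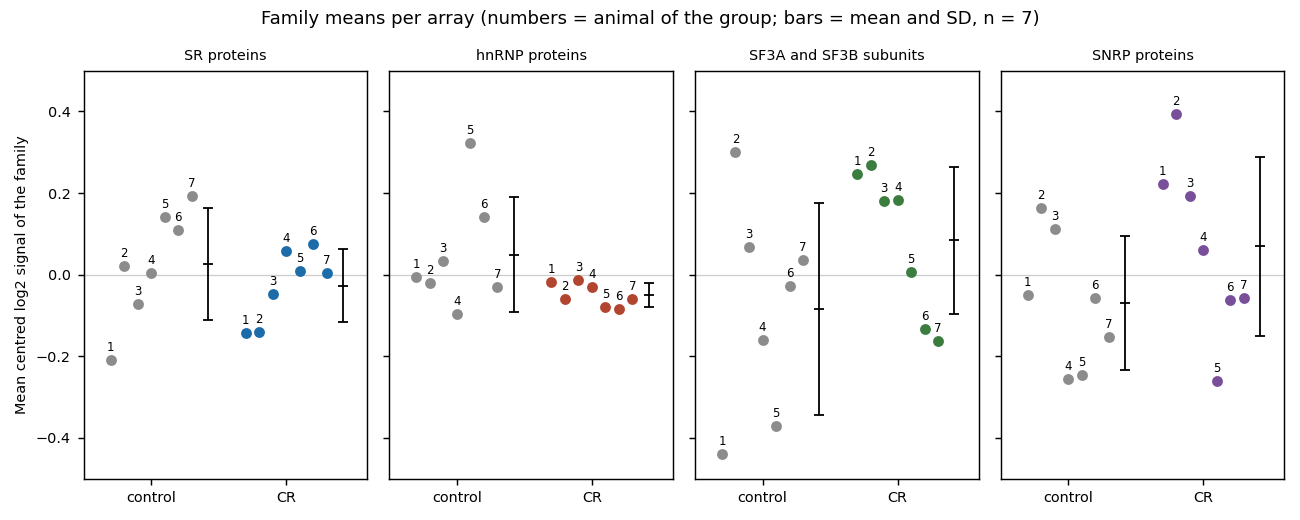
Mean centred log2 signal of each splicing factor family (y axis) in every array, with grey points for controls, coloured points for CR, the animal's number above each point, and bars for the mean and SD of each diet (n = 7). Control 5 is the highest array for hnRNP proteins (0.32) and control 1 (-0.44) and control 5 (-0.37) are the lowest for SF3A and SF3B subunits, while the CR values of the hnRNP family lie within a narrow band.

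Control 5 combined the highest hnRNP mean (0.32) with low means of SF3A and SF3B subunits (-0.37) and SNRP proteins (-0.25). It was the highest of the 14 arrays in 10 of the 38 genes, a share of 26.3% against 9.52% of all tested genes, and 8 of those 10 were hnRNP genes. Its monocyte score was the highest of all arrays (1.01), and its T cell (-0.56) and NK (-0.69) scores the lowest. Control 1 had the lowest SF3A and SF3B mean (-0.44) and SR mean (-0.21), the highest GAPDH ratio (7.50) and a monocyte score of -0.69. The part of cell composition and RNA integrity in these values was not tested. CR 2 was at the other end, highest for the SNRP family (0.39) and high for SF3A and SF3B subunits (0.27). CR 6 and CR 7, the arrays lowest in monocyte markers, had hnRNP means of -0.085 and -0.060, close to the other CR arrays. Without both, the family medians were -0.059 for SR proteins, -0.062 for hnRNP proteins, 0.29 for SF3A and SF3B subunits and 0.14 for SNRP proteins.

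Most of these genes were measured by more than 1 probe set, which gives a second reading from the same RNA. Of the 26 genes with several tested probe sets, 16 had the same sign in all of them, 8 of 12 whose brightest probe set was lower in CR and 8 of 14 whose brightest was higher. Leaving out 1 array turned the sign of 32 of the 92 tested probe sets at least once. All 4 tested probe sets of SRSF5 were lower in CR, from -0.54 ± 0.25 to -0.066 ± 0.19, as were both of SRSF8. The second of SRSF8 gave -0.90 ± 0.43, but CR 1 was at the floor there, and without it the difference was -0.47. HNRNPD was lower in 5 of 5 and HNRNPDL in 4 of 4. Probe sets of a gene share their RNA and are no replicates of the diet.

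Counted by probe set, 51.9% of all tested probe sets were lower in CR. The share was 69.2% of 13 for SR proteins, 23.8% of 21 for SF3A and SF3B subunits and 36.4% of 11 for SNRP proteins. The hnRNP family was lower in 33 of 47, a share of 70.2%. In this family 7 had an unadjusted p under 0.05 (background 5.12%), all 7 lower (background 2.82%) and 0 higher (background 2.29%). These 7 belonged to HNRNPU, HNRNPH1, HNRNPH2 and HNRNPH3. HNRNPH3 was near zero on its brightest probe set, but the next brightest, at a mean log2 signal of 11.97 against 12.26, gave -0.83 ± 0.25 with 7 of 7 CR values below the control median (unadjusted p = 0.00401, adjusted p = 0.918, limma). This second probe set is of the type that can match several transcripts. The other 3 of this gene gave -0.68 ± 0.28, -0.48 ± 0.26 and -0.25 ± 0.46, so all 5 were lower in CR with sizes that differed widely. The last of these was 0.031 without control 5. HNRNPH1 was lower in 5 of 6, and 4 dimmer probe sets ran from -0.71 ± 0.42 to -0.56 ± 0.52. The one at -0.71 ± 0.42 was -0.37 without CR 2, and the one at -0.56 ± 0.52, where CR 7 was at the floor, was -0.14 without CR 7. Over the H/F proteins, 11 of 14 tested probe sets were lower in CR, and both of HNRNPF were among the 3 that were higher. This grouping was made after the values were seen and was given no test.

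**Figure D4:**
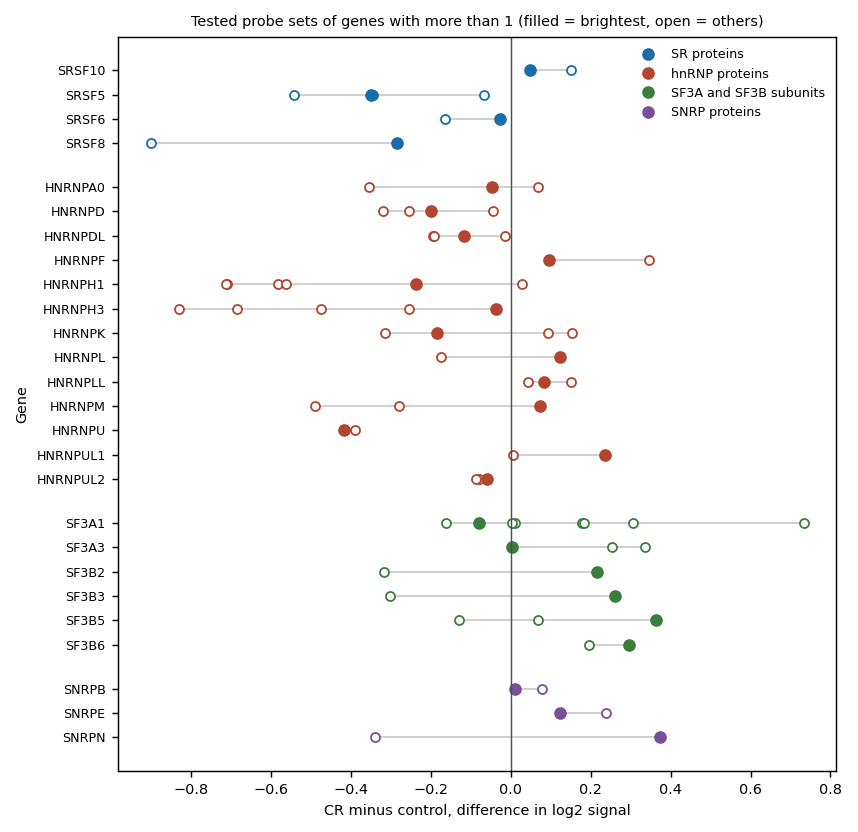
CR minus control difference in log2 signal (x axis) of every tested probe set of the 26 splicing factor genes with more than 1 (y axis), filled for the brightest probe set of a gene and open for the others, coloured by family. All probe sets of SRSF5, HNRNPD, HNRNPU and HNRNPH3 lie left of zero, while those of SF3B3, SF3B2 and SNRPN lie on both sides.

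Other genes were read differently by their probe sets. SF3B3 had a second tested probe set at -0.30 ± 0.42, which was 0.069 without control 3, SF3B2 one at -0.32 ± 0.29 and SNRPN one at -0.34 ± 0.37, all opposite in sign to the brightest in the full set of arrays. Averaging the probe sets of each gene put SF3B3 at -0.021 and SNRPN at 0.017. SF3A1, lower on its brightest probe set, had 8 tested probe sets running from -0.16 to 0.73, and 6 of them were higher. The value of 0.73 rested on control 4, which read 4.18, and without that array it was -0.064. HNRNPK was split, with 2 of 4 lower, and HNRNPA0 had 1 of 3 higher. Which transcripts each probe set reads is not given in the annotation used, and 10 of the 38 chosen probe sets carry the suffix for probes that may match several transcripts.

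Other genes of splicing were read from lists drawn up by function. Among other spliceosome proteins, 19 of 45 tested genes were lower and 26 higher, with a median of 0.11, against 46% lower and 54% higher over all tested genes. At an unadjusted p under 0.05, 2 were lower (background 2.02%) and 3 higher (background 3.16%), and 0 passed after adjustment (limma). PRPF19, a ubiquitin ligase that activates the spliceosome, had a mean of 9.29 ± 0.19 (SD, n = 7) in control animals against 8.66 ± 0.43 under CR. It differed by -0.63 ± 0.19 (adjusted p = 0.918, limma), with all 7 CR values below the control median (background 2.92%). BUD31, a core spliceosome component, differed by 0.32 ± 0.14, with 7 of 7 above (background 5.56%). SR protein kinases and SR-like regulators were lower in 8 of 15, with a median of -0.00296 and 0 genes at an unadjusted p under 0.05. CLK1, a kinase that phosphorylates SR proteins, was at 0.27 ± 0.13, and LUC7L2, a U1-associated protein, at -0.46 ± 0.24, while its other 3 probe sets ran from -0.11 to 0.13.

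Among other RNA-binding splicing regulators, 7 of 17 were lower, with a median of 0.052, and 1 gene in each direction had an unadjusted p under 0.05. ELAVL1 (HuR), which binds AU-rich RNA, had a mean of 9.86 ± 0.61 (SD, n = 7) in control animals against 10.77 ± 0.86 under CR. It differed by 0.91 ± 0.35 (adjusted p = 0.918, limma), and all 7 CR values exceeded the control median (background 5.56%). RBM25, an SR-like protein of the U1 complex, was at -0.41 ± 0.17 with 7 of 7 below (background 2.92%), but its other probe set gave 0.037 ± 0.22. Of the 3 lists, 0 genes passed after adjustment (limma). PRPF19, BUD31, CLK1 and ELAVL1 each had only 1 tested probe set, so their values had no second reading.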

How the data were processed

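Total RNA of PBMC from 7 control and 7 CR animals was extracted with Trizol and hybridised as biotin-labelled cRNA, per the labels' protocols. The authors deposited linear signal intensity values per probe set, made with MAS5 per the submitters' processing notes (its version and filters: not given in the sources used here). MAS5 scales each array as a whole: the mean without the outer values was 500.04 on every array, so a change in total RNA per cell is not visible. Of 52865 probe sets, values below a floor of 16 were raised to it before taking log2. After 99 control probe sets were left out, the upper 50% by mean log2 (26383 probe sets, 9355 named genes) entered limma (version 3.58.1; R version 4.3.3), fitted with lmFit and moderated with eBayes (trend) for a two-sided test of CR minus control. P-values were adjusted by Benjamini-Hochberg over all tested probe sets, with 0.05 as threshold. The differences are given with their standard error (SE). In the annotation 24969 probe sets carried 1 symbol, 361 several and 27535 none listed, and all 39 member symbols matched a current rhesus gene table (RefSeq, T2T-MMU8v2.0) by Entrez ID. Genome positions and sequences were not used here.

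Members and lists were chosen with earlier results of these data known. The genes described with ranges over animals are the 4 members with the smallest p in each of the SR, hnRNP and SNRP families, 3 of SF3A/SF3B, and 7 genes fixed by name (4 of them not analysed here), plus 2 from each other list. The other members' values were described outside that rule. The test was run on simulated arrays, where most of the changes put in, of sizes like those described here or larger, were not recovered. Those changes were put into probe sets drawn from all tested ones, which had a median SE of 0.25 against 0.17 for the members. Recovery among probe sets as bright and even as the members was not measured. Precision is limited by the number of arrays, and the p-values measure the spread between these animals. Alternatives covered the floor, the filter, normalization, the variance model, array weights, the replicate number as a block, the choice of probe set, a monocyte score, the GAPDH 3′/5′ ratio, and arrays left out.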

Additional observations from a re-analysis of the deposited data

Results flagged for a closer look

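In 100 groups of 7 values checked (2 diets for each described gene, family mean, monocyte score and GAPDH ratio), 3 held an array far from the others, where about 1 in 20 would do so by chance. HNRNPD was high in control 5, at 13.77 against 12.98 in the next control. SRSF6, an SR protein, was also high in control 5, at 14.54 against 14.03. SF3B6 was high in CR 4, at 13.45 against 12.84 in the next CR animal.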

How the results depend on the processing

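Under all 29 alternatives, of which 14 left out 1 array each, 0 splicing factor genes passed the adjusted threshold, and 0 probe sets did in the 27 that refit the whole table. The smallest adjusted p over all probe sets ran from 0.085 (without control 6) to 0.994 (without CR 3), so a count of 0 says little about stability. The number of members at an unadjusted p under 0.05 ran from 1 (without control 1 and control 5) to 6, and was 2 without control 5 or without control 6. The hnRNP median stayed below zero and the SNRP median above zero in all 29 (-0.12 to -0.020 and 0.029 to 0.24), while the SR median ran from -0.070 to 0.040. The SF3A and SF3B median, 0.22 in the reported fit, moved to -0.00843 without control 1 and control 5; the cause was not tested. Of 44 described genes, 24 kept their sign throughout. With each array centred on its median, the differences were 0.0074 for SRSF6 and 0.010 for SNRPC. With array weights, the differences were -0.068 for SNRPB, -0.000515 for SRSF10, -0.089 for HNRNPM, 0.038 for SNRPB2 and 0.00919 for SNRPF. With the monocyte score as a covariate, the differences were -0.048 for SRSF11, 0.069 for SRSF6, 0.015 for HNRNPA0 and 0.020 for SF3A1. With the GAPDH ratio as a covariate, the differences were 0.00865 for SRSF6, 0.039 for HNRNPA0 and 0.049 for HNRNPH3. Without CR 6 and CR 7, the differences were -0.11 for SRSF11, 0.024 for SRSF6 and 0.030 for SF3A1. Without control 1 and control 5 (also chosen after seeing the data), the differences were -0.00843 for SF3B6, -0.046 for SNRPB, -0.051 for SRSF10, 0.043 for SRSF6, 0.00777 for HNRNPH1, 0.014 for HNRNPUL2, -0.064 for HNRNPC, -0.13 for HNRNPM, -0.013 for SF3B4, -0.058 for SF3A3, 0.087 for SNRPB2 and 0.15 for SNRPF. With all probe sets of a gene averaged, the differences were -0.021 for SF3B3, -0.026 for HNRNPL, -0.23 for HNRNPM, -0.051 for SF3B2 and 0.15 for SF3A1. With probe sets that may match several transcripts left out (an alternative chosen after seeing the data), the difference was -0.49 for HNRNPM, the only described gene to change sign there. Each gene was read there from its brightest remaining probe set. Without a change of sign, SRSF5 moved to -0.066, LUC7L2 to -0.021, HNRNPA0 to -0.36 and SNRPE to 0.24. Dimmer remaining probe sets of SRSF5 gave -0.34 and -0.54. With 1 array left out, the difference ran from -0.026 to 0.12 for SRSF10, from -0.11 to 0.18 for HNRNPM, from -0.061 to 0.075 for SF3A3, from -0.092 to 0.035 for SNRPB2, from -0.13 to 0.052 for SNRPF, from -0.11 to 0.063 for SNRPC, from -0.10 to 0.066 for SNRPB, from -0.066 to 0.070 for SRSF6, from -0.031 to 0.21 for HNRNPC, from -0.12 to 0.031 for HNRNPH3 and from -0.15 to 0.013 for HNRNPA0. Over all probe sets, centring each array on its median moved the split at an unadjusted p under 0.05 from 605 higher and 745 lower to 901 and 548, and shifted the median difference by 0.034. Same-numbered animals are not known to be paired, and their deviations correlated at -0.11 to 0.18. A fit with the replicate block gave 0 members past the threshold and 4 at an unadjusted p under 0.05, as without it, and 1 of 7 controls correlated best with the CR animal of its own number.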

Other observations

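The hnRNP genes varied less among CR animals than among controls. The SD over animals was smaller in CR for 15 of 16 tested hnRNP genes, a share of 93.8% against 54.2% of all tested genes, and the median SD was 0.21 in CR and 0.33 in controls. Over all tested genes the medians were 0.39 and 0.42. Among SR genes the SD was smaller in CR for 5 of 7, among SNRP genes for 5 of 8, and among SF3A and SF3B genes for 3 of 7. The size of the hnRNP gap depended on 2 control animals: without control 5 the median SD of controls was 0.30 and 13 of 16 genes were smaller in CR (50% of all tested genes), and without control 1 and control 5 it was 0.22 and 12 of 16 (36.4% of all tested genes). No test was made of these spreads, which were looked at after the differences.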
